A study of Mus musculus with 18 samples.

Results

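Hippocampal expression in 6 samples of aged mice with unimpaired spatial memory was set against the equally weighted mean of 6 samples of aged mice with impaired spatial memory and 6 samples of young mice, whose spatial memory the labels also call unimpaired. The comparison asks which genes stand apart in old animals that kept their memory. A gene was described where its aged unimpaired mean lay on the same side of both other means. Of the 13121 genes measured, 3434 (26.2%) had the aged unimpaired mean above both others and 4039 (30.8%) had it below both, and in the other 5648 it lay between them. All 18 samples of the series entered the comparison, each on 1 Affymetrix array, with total RNA labelled with biotin. Memory status and age class come from the labels, which give no treatment, and the sources used here give no strain, sex, age in months or batch. Nor do the labels say whether each sample is a separate animal, so p-values measure the spread between these samples, which may be technical.

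The hippocampus forms and recalls memories of places through a circuit that runs from granule cells of the dentate gyrus to pyramidal cells of areas CA3 and CA1. Learning in this circuit depends on glutamate receptors, on genes that neurons switch on within minutes of activity, and on changes in synapse strength. Spatial memory declines with age in some animals of a cohort and not in others, and the animals that keep it are used to study resistance to ageing.

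Markers of the hippocampus were present on every array. Over all 18 samples the log2 values lay between 11.69 and 12.79 for Neurod6, a transcription factor of hippocampal pyramidal neurons, and between 7.90 and 8.86 for Prox1, the transcription factor that marks dentate granule cells. They lay between 9.52 and 10.72 for Fibcd1, a CA1 marker, and between 8.09 and 8.93 for Grik4, a kainate receptor subunit of CA3. All levels below are log2(signal + 16) after each array was scaled to a common trimmed mean, and differences on this scale understate those of dim genes. A difference is the aged unimpaired mean minus the mean of both other groups, with the standard error of the limma fit, and a positive one means a higher aged unimpaired level. The median standard error was 0.107, and the 95% interval at that error reached 0.228 to either side. The number of arrays limits this precision.

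No probe set passed the test. With limma and Benjamini-Hochberg adjustment, 0 of 27022 probe sets (0%) had an adjusted p under 0.05, and the lowest adjusted p was 0.107. With no adjustment, 1496 probe sets (5.54%) passed a p of 0.05, of which 554 (2.05%) had a higher and 942 (3.49%) a lower aged unimpaired mean. A stricter test asked that aged unimpaired samples differ from each of the other groups, taking the larger p of the pair. It called 0 probe sets, and 257 (0.951%) had an unadjusted p under 0.05, of which 62 (0.229%) were higher and 195 (0.722%) lower. The lowest unadjusted p of the stricter test was 1.21e-04. By position alone, 6916 probe sets (25.6%) had the aged unimpaired mean above both others and 8524 (31.5%) had it below both. Counted as genes, 269 (2.05%) were higher and 443 (3.38%) lower at an unadjusted p under 0.05, and 29 (0.221%) were higher and 90 (0.686%) lower in the stricter test. For scale, the same fit called 3 probe sets (0.0111%) between aged unimpaired and aged impaired samples and 37 (0.137%) between aged unimpaired and young samples. These pairwise comparisons share the aged unimpaired samples. Genes are therefore named below as values, none of which passed the adjusted threshold.

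Ranked by p, the first 10 genes whose aged unimpaired mean lay below both other means differed by -0.26 to -1.11. Sphk1 encodes a kinase that makes sphingosine-1-phosphate, a lipid messenger. Its level was 4.56 to 5.87 (median 5.41) in aged unimpaired samples, 5.93 to 6.50 (median 6.20) in aged impaired samples and 5.86 to 7.11 (median 6.60) in young samples. Of the aged unimpaired samples 5 lay below all 12 others, and replicate 5 at 5.87 stood just above young replicate 5 at 5.86. The difference was -1.11 ± 0.19 (limma adjusted p = 0.107), made up of -0.93 against aged impaired and -1.29 against young samples. All 6 aged unimpaired values lay under 5.92, the lowest mean level that the filter on dim probe sets kept. The probe set thus passed the filter only through the other groups. A second, dimmer Sphk1 probe set differed by 0.11 ± 0.26. Over the alternative settings the Sphk1 difference ranged from -1.60 to -0.60. It was -1.45 without the 5 arrays of lowest choroid plexus signal, described below. That fit was chosen after seeing the data, kept 3 aged unimpaired samples and called 0 probe sets.

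Ndc1, a membrane protein that anchors the nuclear pore complex, was the gene whose aged unimpaired samples were all outside the range of the other 12 on its probe set of highest mean. Ndc1 levels were 7.75 to 8.09 (median 7.95) in aged unimpaired samples, 8.09 to 8.50 (median 8.35) in aged impaired samples and 8.10 to 8.50 (median 8.35) in young samples. The highest aged unimpaired sample stayed just below the lowest of the others. The difference was -0.36 ± 0.08 (limma adjusted p = 0.351), with -0.35 against aged impaired and -0.37 against young samples. Its other probe sets gave -0.22 ± 0.12 and 0.00 ± 0.11.

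Insyn2a, a protein of inhibitory synapses, had levels of 4.94 to 6.79 (median 6.03) in aged unimpaired samples, 6.60 to 7.39 (median 6.99) in aged impaired samples and 6.33 to 7.35 (median 7.05) in young samples. Of the 6 aged unimpaired samples, 4 lay below all others, and the difference was -0.94 ± 0.22 (limma adjusted p = 0.385). Xkr6, a member of the XK family of membrane proteins, had levels of 5.32 to 6.90 (median 6.11) in aged unimpaired samples, 6.51 to 7.51 (median 7.12) in aged impaired samples and 6.44 to 6.85 (median 6.63) in young samples. Here 5 aged unimpaired samples lay below all others and the last one, at 6.90, lay within the aged impaired range and above all young samples, for a difference of -0.80 ± 0.20 (adjusted p = 0.530). Abcg8, part of a sterol exporter, differed by -0.68 ± 0.17, and 4 of 6 aged unimpaired samples were below all others. Ears2, the mitochondrial glutamyl-tRNA synthetase, differed by -0.40 ± 0.09 (adjusted p = 0.379), again with 4 of 6 samples below all others. Traf3ip1, a protein of transport within cilia, differed by -0.38 ± 0.09, with -0.38 against aged impaired and -0.39 against young samples.

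Of the remaining genes of lowest p on this side, 3110021A11Rik differed by -0.49 ± 0.12, Gm9112 by -0.62 ± 0.15 and 0610030E20Rik by -0.26 ± 0.07. Their adjusted p lay between 0.568 and 0.602. In each of these 10 genes at least 5 of the 6 aged unimpaired samples lay below the median of the other 12. The genes were picked for a low p on this side, so this follows largely from the choice and no conclusion is drawn from it. Other tested probe sets of Ears2, 3110021A11Rik, 0610030E20Rik and Insyn2a gave values between -0.26 and 0.08, nearer to 0 than the named ones.

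The first 10 genes by p whose aged unimpaired mean lay above both other means differed by 0.23 to 0.70. Rab5c, a small GTPase of early endosomes, had levels of 10.74 to 11.04 (median 10.88) in aged unimpaired samples, 9.82 to 10.85 (median 10.31) in aged impaired samples and 10.23 to 10.65 (median 10.45) in young samples. Of the 6 aged unimpaired samples 4 exceeded all others, and 1 aged impaired sample reached into their range. The difference was 0.48 ± 0.12 (limma adjusted p = 0.542), nearly the same from either group, with 0.52 against aged impaired and 0.44 against young samples. Irf2bpl, a nuclear regulator of transcription, had levels of 10.69 to 11.02 (median 10.85) in aged unimpaired samples, 10.27 to 10.60 (median 10.44) in aged impaired samples and 10.34 to 10.75 (median 10.63) in young samples. Its difference was 0.33 ± 0.07 (adjusted p = 0.299), with 0.42 against aged impaired and 0.23 against young samples, and another tested probe set gave 0.01 ± 0.09.

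Pdlim1, an adaptor between the actin cytoskeleton and kinases, had 5 of 6 aged unimpaired samples above all others. Pdlim1 levels were 8.32 to 8.73 (median 8.59) in aged unimpaired samples, 8.16 to 8.48 (median 8.44) in aged impaired samples and 7.91 to 8.33 (median 8.19) in young samples, for a difference of 0.31 ± 0.07 (limma adjusted p = 0.530). The gap was uneven, with 0.18 against aged impaired and 0.43 against young samples. Pomt1, an enzyme that starts the mannose chains of dystroglycan, differed by 0.39 ± 0.10, and 4 of 6 samples were above all others. B3galt2, a galactosyltransferase, differed by 0.49 ± 0.13, but unevenly, with 0.74 against aged impaired and 0.24 against young samples. Cyp2e1, a cytochrome P450 that oxidises ethanol and other small molecules, was uneven in the opposite sense. It differed by 0.70 ± 0.18, with 0.40 against aged impaired and 1.00 against young samples. Specc1 differed by 0.23 ± 0.06, Zfp825, a zinc finger gene, by 0.52 ± 0.14 and 1110038B12Rik by 0.38 ± 0.11. The Specc1 difference was 0.33 against aged impaired and 0.13 against young samples. Other tested probe sets gave 0.20 ± 0.08 and -0.01 ± 0.10 for Specc1, 0.04 ± 0.20 for Zfp825, and 0.24 ± 0.21 and 0.44 ± 0.14 for B3galt2. The B3galt2 probe set at 0.24 stood at 0.57 against aged impaired and -0.09 against young samples. Its aged unimpaired mean thus lay between the groups.

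The stricter test, which needs a gap to both groups, also put Rcl1 and Luc7l in its leading 5 on the higher side. Rcl1 takes part in the processing of ribosomal RNA, and it differed by 0.19 ± 0.06, with 0.19 against aged impaired and 0.20 against young samples. Luc7l, a splicing factor of the U1 particle, differed by 0.18 ± 0.06, with 0.19 against aged impaired and 0.18 against young samples. Of the other tested Luc7l probe sets, 2 gave -0.20 ± 0.15 and -0.19 ± 0.14, on the opposite side, and the third 0.08 ± 0.16. The adjusted p of both genes in the comparison with the mean was 0.734.

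**Figure D1:**
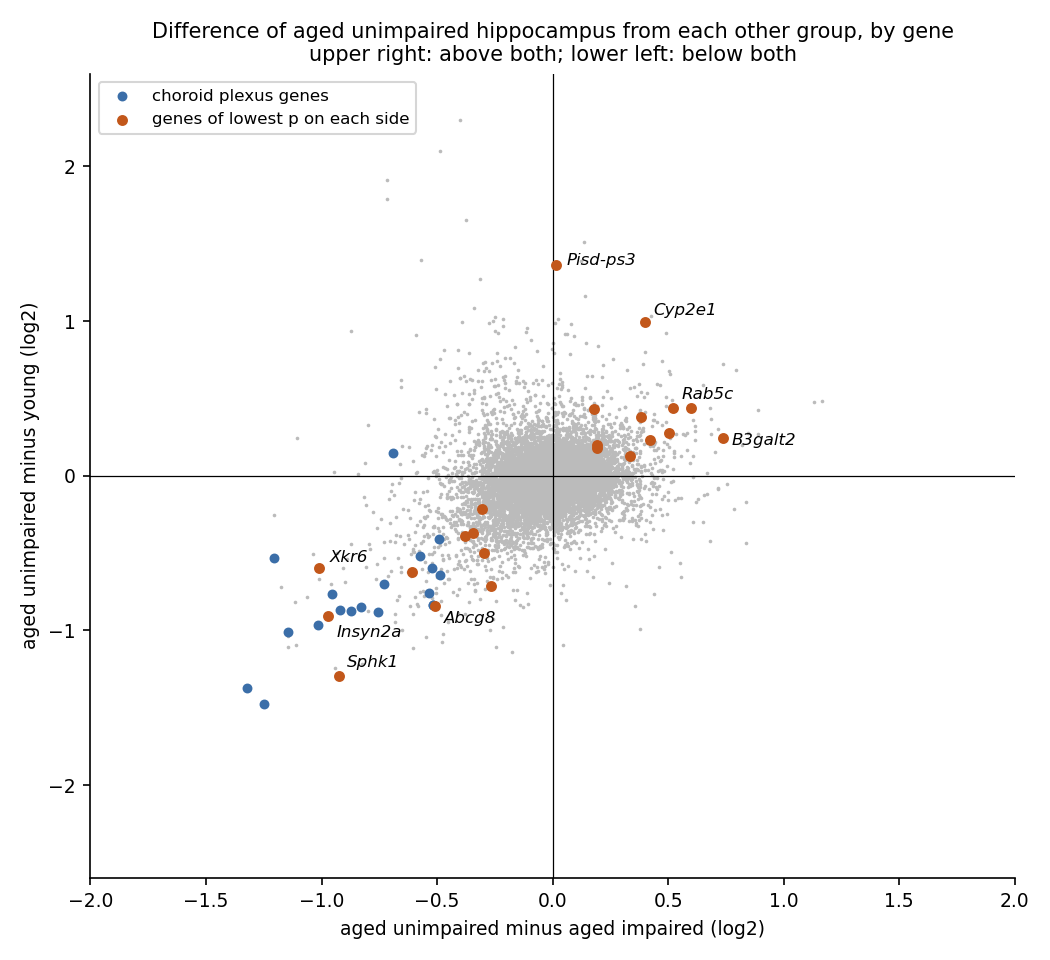
Each point is 1 of 13121 genes, placed by the difference of the aged unimpaired mean from the aged impaired mean (x axis, log2) and from the young mean (y axis, log2); both axes share the aged unimpaired samples. Orange points are the genes of lowest p on each side and blue points the choroid plexus genes, with Sphk1 at -0.93 and -1.29 and Pisd-ps3 at 0.01 and 1.36.

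A low p against the mean of both groups did not always come with a gap to both. Of the 10 probe sets of lowest p, 6 differed by less than 0.2 from one of the groups. Pisd-ps3, a pseudogene of phosphatidylserine decarboxylase, had levels of 12.22 to 12.81 (median 12.65) in aged unimpaired samples, 12.30 to 12.97 (median 12.58) in aged impaired samples and 10.96 to 11.57 (median 11.24) in young samples. The aged groups overlapped throughout and all young samples were lower. The difference from the mean was 0.69 ± 0.11 (limma adjusted p = 0.107), with 0.01 against aged impaired and 1.36 against young samples. Pcdhb9, a clustered protocadherin of neuronal cell contacts, showed the same layout. It differed by 0.41 ± 0.08 (adjusted p = 0.165), with -0.00 against aged impaired and 0.82 against young samples.

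Full separation of the 6 aged unimpaired samples from all 12 others, by a gap over 1e-04, was found for 6 probe sets (0.0222%), of which 2 (0.0074%) were higher and 4 (0.0148%) lower. Other than that of Ndc1, these probe sets were not the ones of highest mean for their genes, and they were singled out after their values were seen. The higher ones belonged to Cog1, a subunit of a tethering complex of the Golgi, and to Armc1, an armadillo-repeat protein. Cog1 levels on this probe set were 8.61 to 9.10 (median 8.74) in aged unimpaired samples, 8.11 to 8.59 (median 8.46) in aged impaired samples and 8.25 to 8.59 (median 8.47) in young samples, for a difference of 0.36 ± 0.08 (limma adjusted p = 0.379). The lowest aged unimpaired value stood just above the highest of the others. The other 4 tested Cog1 probe sets lay between -0.14 ± 0.12 and 0.05 ± 0.06. Armc1 levels were 11.25 to 11.39 (median 11.29) in aged unimpaired samples, 11.08 to 11.23 (median 11.15) in aged impaired samples and 11.08 to 11.21 (median 11.17) in young samples, a small but even difference of 0.14 ± 0.04. Another tested Armc1 probe set gave -0.02 ± 0.08.

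The lower ones beside Ndc1 belonged to Fut11, Epn2 and Slc6a9. Fut11 is a fucosyltransferase, and its levels were 5.91 to 6.80 (median 6.54) in aged unimpaired samples, 6.90 to 7.43 (median 7.08) in aged impaired samples and 6.99 to 7.26 (median 7.11) in young samples. Every aged unimpaired sample was below every other sample, and the difference was -0.66 ± 0.12 (limma adjusted p = 0.118), with -0.66 against aged impaired and -0.65 against young samples. The other Fut11 probe sets gave -0.00 ± 0.10 and 0.08 ± 0.10. Epn2, an endocytic adaptor, differed by -0.36 ± 0.07 (adjusted p = 0.165), while 3 other probe sets ranged from -0.08 ± 0.10 to 0.01 ± 0.07. Slc6a9, the glycine transporter of astrocytes, differed by -0.42 ± 0.11, while another probe set gave -0.00 ± 0.11. Mast1, a kinase bound to microtubules, came close, with levels of 4.82 to 5.97 (median 5.52) in aged unimpaired samples, 5.97 to 6.62 (median 6.10) in aged impaired samples and 5.97 to 6.60 (median 6.20) in young samples. Aged unimpaired replicate 6, aged impaired replicate 3 and young replicate 1 tied at 5.97, and the other 5 aged unimpaired samples lay below all 12 others. The difference was -0.75 ± 0.15 (adjusted p = 0.187), and another tested Mast1 probe set, of mean 10.22, gave 0.07 ± 0.09. The mean of the named Mast1 probe set over all samples, 5.96, stood just above the filter level of 5.92. Its aged unimpaired mean, 5.46, lay under that level, so it passed the filter only through the other groups.

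**Figure D2:**
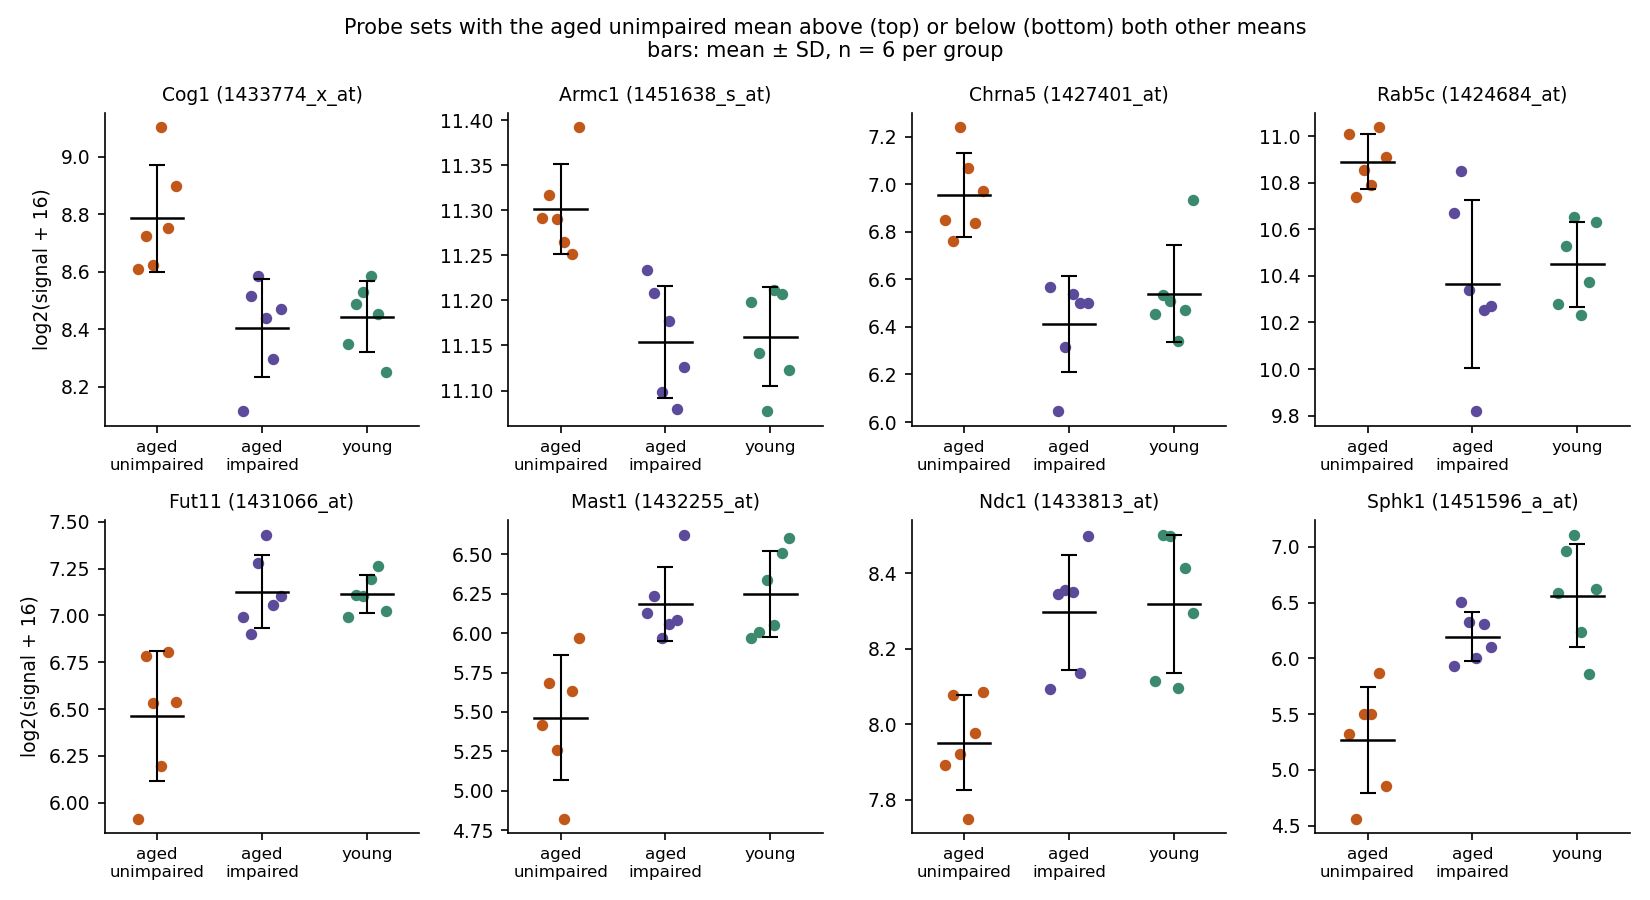
Each point is 1 sample and bars are the mean ± SD of 6, on the log2(signal + 16) scale; axes do not start at 0 and differ between panels. In the panels for Cog1, Armc1, Fut11 and Ndc1 the aged unimpaired samples lie outside the range of the other 12, and in those for Chrna5, Rab5c, Mast1 and Sphk1 the ranges touch or overlap.

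Chrna5 and Lamtor2 were noted among the 15 probe sets of lowest p. Chrna5 encodes the alpha5 subunit of nicotinic acetylcholine receptors. Its levels were 6.76 to 7.24 (median 6.91) in aged unimpaired samples, 6.04 to 6.57 (median 6.50) in aged impaired samples and 6.34 to 6.93 (median 6.49) in young samples, and young replicate 6 at 6.93 was the sample of the other groups that reached the aged unimpaired range. The difference was 0.48 ± 0.10 (limma adjusted p = 0.229), with 0.54 against aged impaired and 0.41 against young samples. A second Chrna5 probe set gave 0.16 ± 0.17. Lamtor2, a subunit of the lysosomal scaffold that recruits the growth kinase mTORC1, differed by -0.42 ± 0.09 (adjusted p = 0.241), and another probe set gave -0.08 ± 0.07. Where a gene is named for 1 of several probe sets, the value belongs to that probe set, and which transcripts each one reads was not analysed here.

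**Figure D3:**
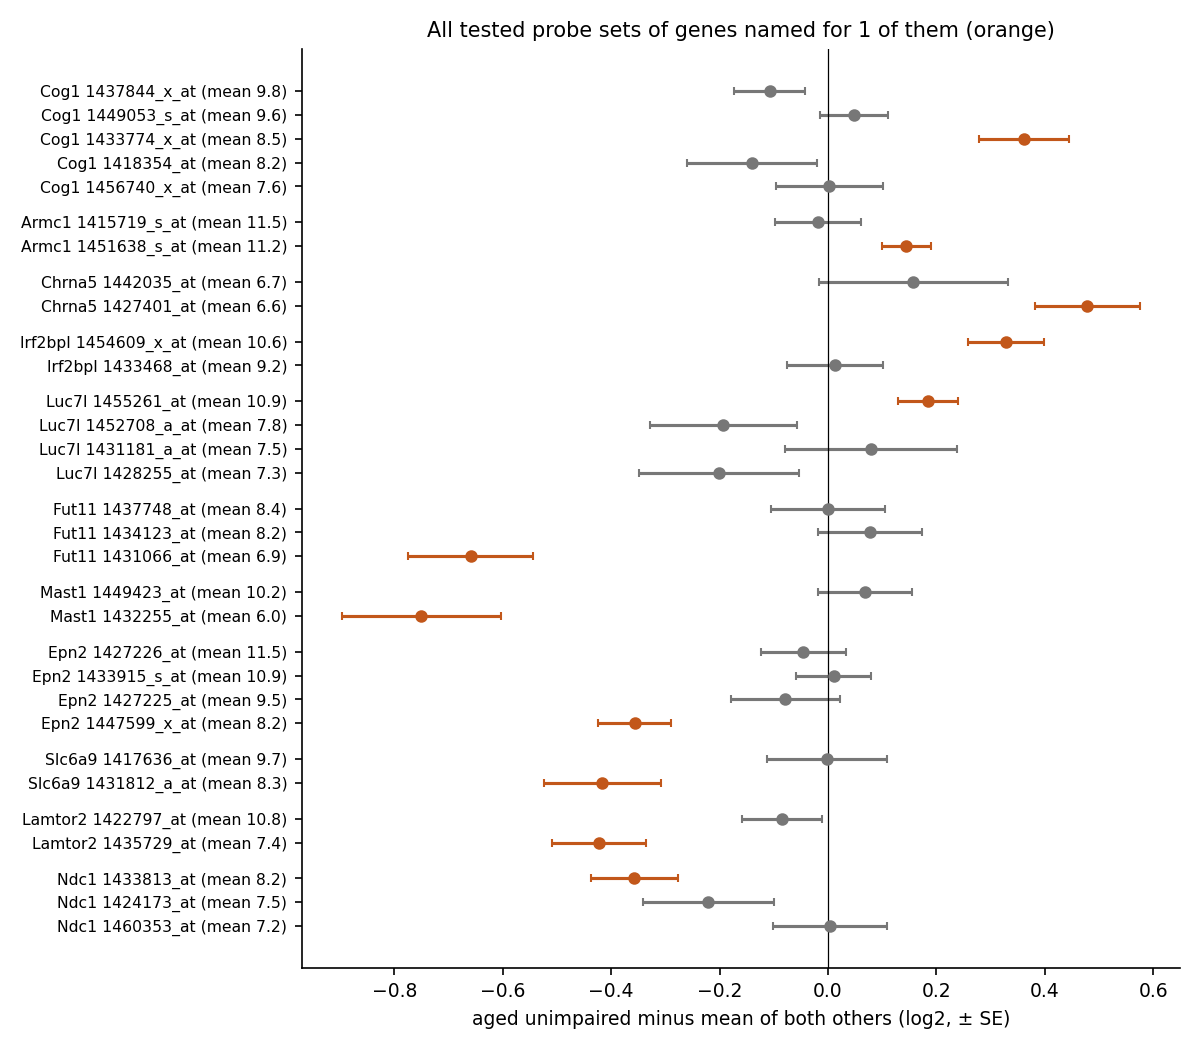
Points are the difference of the aged unimpaired mean from the mean of both other groups (log2) with its standard error, for every tested probe set of 11 genes; orange marks the named probe set, and brackets give each probe set's mean level. The other probe sets of Fut11, Mast1, Slc6a9 and Armc1 lie near 0.

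For Ddx5 and Zc2hc1c the outcome turned on 1 sample. Ddx5 encodes an RNA helicase that acts in splicing and transcription. On 1 of its 6 tested probe sets the levels were 5.63 to 7.03 (median 5.90) in aged unimpaired samples, 6.30 to 6.84 (median 6.53) in aged impaired samples and 6.67 to 6.97 (median 6.87) in young samples. In 5 aged unimpaired samples Ddx5 lay between 5.63 and 6.08, below all 12 others, and replicate 6 at 7.03 lay above all of them. The difference was -0.65 ± 0.15 (limma adjusted p = 0.385), and without replicate 6 it was -0.85 (adjusted p = 0.00106), the only call of that fit. The other 5 tested Ddx5 probe sets, all of higher mean, gave -0.27 ± 0.14 on the same side and 0.06 ± 0.06, 0.10 ± 0.12, 0.11 ± 0.05 and 0.25 ± 0.15 on the other. Zc2hc1c, a zinc finger gene, had levels of 5.56 to 5.87 (median 5.75) in aged unimpaired samples, 5.58 to 6.60 (median 6.15) in aged impaired samples and 6.35 to 6.79 (median 6.55) in young samples. Aged impaired replicate 6 at 5.58 was the sample within the aged unimpaired range. The difference was -0.58 ± 0.11 (adjusted p = 0.164), and -0.63 without that sample (adjusted p = 0.0418). All aged unimpaired values of this probe set lay under the filter level of 5.92, so it passed the filter only through the other groups. The other tested Zc2hc1c probe set, of higher mean, gave 0.14 ± 0.27, on the opposite side. For both genes the sample left out was the one that went against the difference. The low adjusted p came from 1 of 18 such fits and was not corrected for that choice, so no conclusion is drawn from it.

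Gene lists were described by how many of their measured genes had the aged unimpaired mean above or below both others, beside 26.2% and 30.8% over all genes and a median difference of -0.00. The 42 lists held 895 entries, 783 of them measured, and 0 of their genes were called. The choroid plexus list stood lowest. This tissue makes cerebrospinal fluid and lies against the hippocampus. Of 19 measured genes, 18 lay below both other groups and 0 above, with Cox8b between them, and the median difference was -0.82. Ttr, the thyroid hormone carrier made there, had levels of 13 to 16.08 (median 14.97) in aged unimpaired samples, 14.02 to 16.43 (median 15.77) in aged impaired samples and 14.23 to 16.47 (median 15.75) in young samples. The groups overlapped widely, and the difference was -0.82 ± 0.44 (limma adjusted p = 0.908). Clic6, a chloride channel protein, differed by -1.08 ± 0.62 and Igf2, a growth factor of choroid plexus and meninges, by -0.68 ± 0.35. Fewer cells of a type and less RNA per cell cannot be told apart in such tissue samples.

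Choroid plexus signal varied widely within each group. Its mean per sample was 8.70 ± 1.48 in aged unimpaired, 9.51 ± 1.09 in aged impaired and 9.48 ± 1.11 in young samples (SD, n = 6 each). It was low in aged unimpaired replicates 3, 4 and 5 at 7.48, 7.05 and 7.66, in aged impaired replicate 5 at 7.53 and in young replicate 6 at 7.60, and the next sample stood at 8.79. The exact 2-sided permutation test of 6 against 12 samples gave p = 0.201, or 0.363 after adjustment over 9 such measures (difference -0.79). Without these 5 arrays, which left 3 aged unimpaired, 5 aged impaired and 5 young samples, the median difference of the list was 0.10. The arrays were picked as the lowest on this same list, and 3 of them were aged unimpaired. A rise of the median therefore follows from the choice, and no conclusion is drawn from it. In the fit without these arrays, chosen after seeing the data, 0 probe sets were called.

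Lists of meninges, ependyma and thalamus also had most of their genes below both groups, and the striatum list did not. For meninges and collagen genes the count was 11 of 18 below and 1 above, with a median of -0.29. The median of this list was -0.05 from aged impaired and -0.40 from young samples, so most of the gap was to young samples. Col1a2, a chain of fibrillar collagen, differed by -0.64 ± 0.21. The organic anion transporter Slc22a6 differed by -0.34 ± 0.15 and the GABA transporter Slc6a13, of meninges, by -0.55 ± 0.27. For ependymal and cilia genes it was 9 of 13 below and 2 above, with a median of -0.24. Rsph1, of the radial spokes of cilia, differed by -0.56 ± 0.21 and Spag6l by -0.24 ± 0.11, whereas Spag6 differed by 0.76 ± 0.23 with 0.12 against aged impaired and 1.39 against young samples. For thalamus and habenula genes 7 of 11 were below and 0 above, with a median of -0.12. Among these Tcf7l2, a Wnt effector and marker of thalamic neurons, differed by -0.49 ± 0.16, Zic1 by -0.50 ± 0.26 and Ramp3 by -0.27 ± 0.14. For striatum genes 4 of 8 were below and 2 above, with a median of -0.09.

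The per-sample means of these lists overlapped between the groups. For the ependyma list they were 7.52 ± 0.34 in aged unimpaired, 7.78 ± 0.22 in aged impaired and 7.59 ± 0.33 in young samples (SD, n = 6 each, exact permutation p = 0.294). For the meninges list they were 8.24 ± 0.38 in aged unimpaired, 8.38 ± 0.35 in aged impaired and 8.69 ± 0.28 in young samples (SD, n = 6 each, exact permutation p = 0.118). For the thalamus list they were 8.04 ± 0.22 in aged unimpaired, 8.21 ± 0.18 in aged impaired and 8.19 ± 0.08 in young samples (SD, n = 6 each, exact permutation p = 0.0668). For the striatum list they were 8.14 ± 0.14 in aged unimpaired, 8.12 ± 0.12 in aged impaired and 8.27 ± 0.06 in young samples (SD, n = 6 each, exact permutation p = 0.356). RNA quality was gauged from the control transcripts Gapdh and actin, whose mean 3' over 5' log2 ratio was 0.36 ± 0.06 in aged unimpaired, 0.30 ± 0.05 in aged impaired and 0.31 ± 0.07 in young samples (SD, n = 6 each, exact permutation p = 0.108). The lowest adjusted p over the 9 measures was 0.328. The part of neighbouring tissue or of RNA quality in the differences of the genes named above was not tested beyond the fits that use them as covariates.

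**Figure D4:**
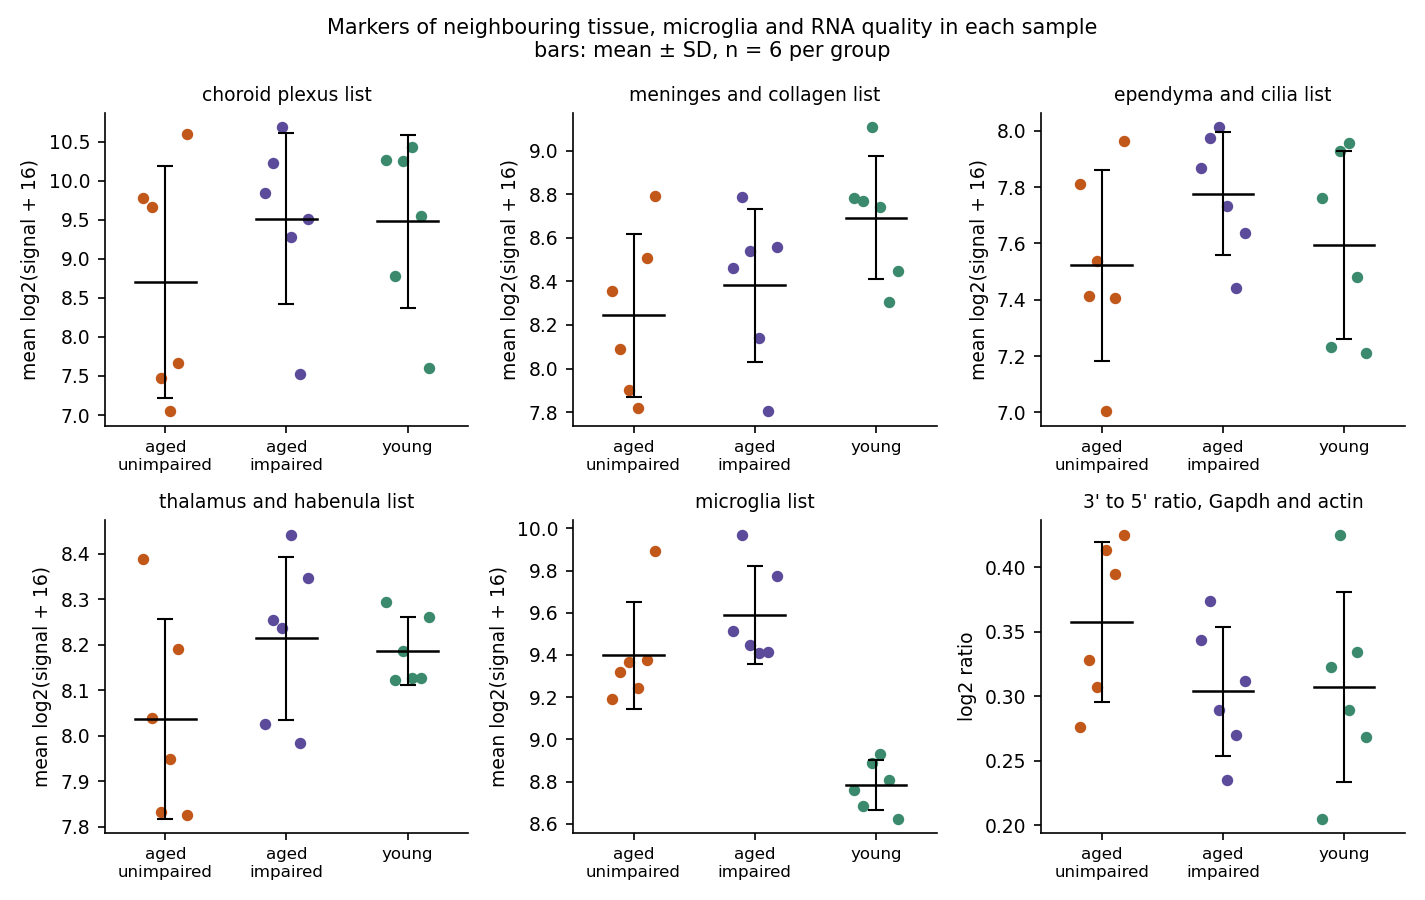
Each point is 1 sample and bars are the mean ± SD of 6, for the mean log2(signal + 16) of 5 marker lists and for the log2 3' to 5' ratio of control transcripts; axes do not start at 0. Choroid plexus signal is low in 3 aged unimpaired, 1 aged impaired and 1 young sample, and microglia signal is lower in all young samples than in both aged groups.

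Genes of CA1 pyramidal neurons had means above both groups more often than below, by small amounts. Of the CA1 list 7 of 11 genes were above both and 0 below, with a median difference of 0.11. Fibcd1, a receptor enriched in CA1 pyramidal cells, had levels of 10.25 to 10.72 (median 10.56) in aged unimpaired samples, 9.52 to 10.41 (median 10.14) in aged impaired samples and 10.03 to 10.39 (median 10.19) in young samples. The upper aged unimpaired samples exceeded all others but the ranges overlapped, and the difference was 0.38 ± 0.11 (limma adjusted p = 0.710). Gpr161, an orphan receptor, differed by 0.24 ± 0.10 and Mpped1 by 0.13 ± 0.06. Mpped1 stood at 0.27 against aged impaired and -0.01 against young samples. The median difference of the CA1 list was 0.25 from aged impaired and 0.05 from young samples. In the list of CA2 and CA3 genes, 1 of 13 lay above both groups and 2 below, with a median of 0.02.

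Dentate granule cell genes did not follow the CA1 layout, with 6 of 14 below both groups, 2 above and a median of -0.06. Prox1, which fixes granule cell identity, differed by -0.27 ± 0.13, with -0.31 against aged impaired and -0.22 against young samples. Tdo2, a tryptophan-degrading enzyme made in granule cells, differed by -0.24 ± 0.11 and the desmosome gene Dsp by -0.24 ± 0.15. Genes of dividing cells and newborn neurons had 6 of 13 below both groups and 0 above, with a median of -0.15. The median of this list was 0.01 from aged impaired and -0.17 from young samples, so as a list it did not stand apart from both. Mcm3, a subunit of the replication helicase, had levels of 5.59 to 6.71 (median 6.30) in aged unimpaired samples, 6.76 to 7.22 (median 6.99) in aged impaired samples and 6.33 to 7.04 (median 6.68) in young samples. All aged unimpaired samples lay below the aged impaired ones but overlapped young samples, and the difference was -0.56 ± 0.14 (limma adjusted p = 0.602). Mcm2, of the same helicase, differed by -0.84 ± 0.29. Dpysl3, a protein of growing axons, differed by -0.24 ± 0.07, with 0.01 against aged impaired and -0.49 against young samples.

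Synaptic and activity-driven genes stood on the higher side in number, with medians within 0.1 of 0. Of glutamate postsynaptic genes 13 of 22 were above both groups and 5 below, with a median of 0.05. Gria1, an AMPA receptor subunit, differed by 0.16 ± 0.08 and the receptor Grm5 by 0.09 ± 0.07, whereas Dlg4, the scaffold PSD-95, differed by -0.12 ± 0.08. Of presynaptic genes 10 of 21 were above and 3 below, with a median of 0.04. Slc17a7, the vesicular glutamate transporter of these neurons, had levels of 13.14 to 13.46 (median 13.26) in aged unimpaired samples, 12.85 to 13.19 (median 13.01) in aged impaired samples and 12.72 to 13.33 (median 13.22) in young samples. The ranges overlapped, and the difference was 0.20 ± 0.08 (limma adjusted p = 0.884). The vesicle protein Sv2b differed by 0.15 ± 0.07 and the vesicle GTPase Rab3a by 0.12 ± 0.07. Of potassium channel genes 9 of 22 were above and 2 below, and Kcnn2 and Kcnn1, of calcium-activated potassium channels, differed by 0.09 ± 0.08 and 0.07 ± 0.07. The medians of the glutamate and potassium channel lists changed sign in 1 and 3 of 27 settings.

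Of immediate early genes, which neurons switch on with activity, 9 of 21 were above both groups and 3 below, with a median of 0.08. Dusp6, a phosphatase that restrains ERK signalling, differed by 0.24 ± 0.11, the nuclear receptor Nr4a3 by 0.14 ± 0.06 and the AP-1 member Fosl2 by 0.15 ± 0.07. Nr4a3 stood at 0.23 against aged impaired and 0.04 against young samples. Of the slower activity effectors 8 of 17 were above and 2 below. Vgf, a secreted neuropeptide precursor, differed by 0.20 ± 0.08 and the pentraxin Nptx1 by 0.14 ± 0.08, whereas Tiparp differed by -0.16 ± 0.09. The median of the immediate early list was 0.13 from aged impaired and 0.01 from young samples.

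Microglia genes had a positive median against the mean of both groups, 0.17, with opposite positions against the groups. The median was -0.20 from aged impaired and 0.59 from young samples, and only 5 of 23 genes lay above both groups, with 0 below. Itgam, an integrin of microglia, had levels of 7.5 to 8.05 (median 7.59) in aged unimpaired samples, 7.18 to 7.79 (median 7.36) in aged impaired samples and 6.68 to 7.5 (median 7.07) in young samples, for a difference of 0.39 ± 0.12 (limma adjusted p = 0.710). The aged groups overlapped, and young samples were mostly lower. Aif1, the marker IBA1, differed by 0.35 ± 0.10, with 0.03 against aged impaired and 0.66 against young samples. Clec7a, a receptor of activated microglia, differed by 0.81 ± 0.34, with -0.49 against aged impaired and 2.10 against young samples. Of oligodendrocyte precursor genes 2 of 12 were above and 5 below. Bmp4, a signal that restrains oligodendrocyte maturation, differed by -0.79 ± 0.23, with -0.68 against aged impaired and -0.89 against young samples, while Gpr17, a receptor of immature oligodendrocytes, stood at 0.10 against aged impaired and -0.61 against young samples, and Lhfpl3 differed by -0.15 ± 0.08.

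**Figure D5:**
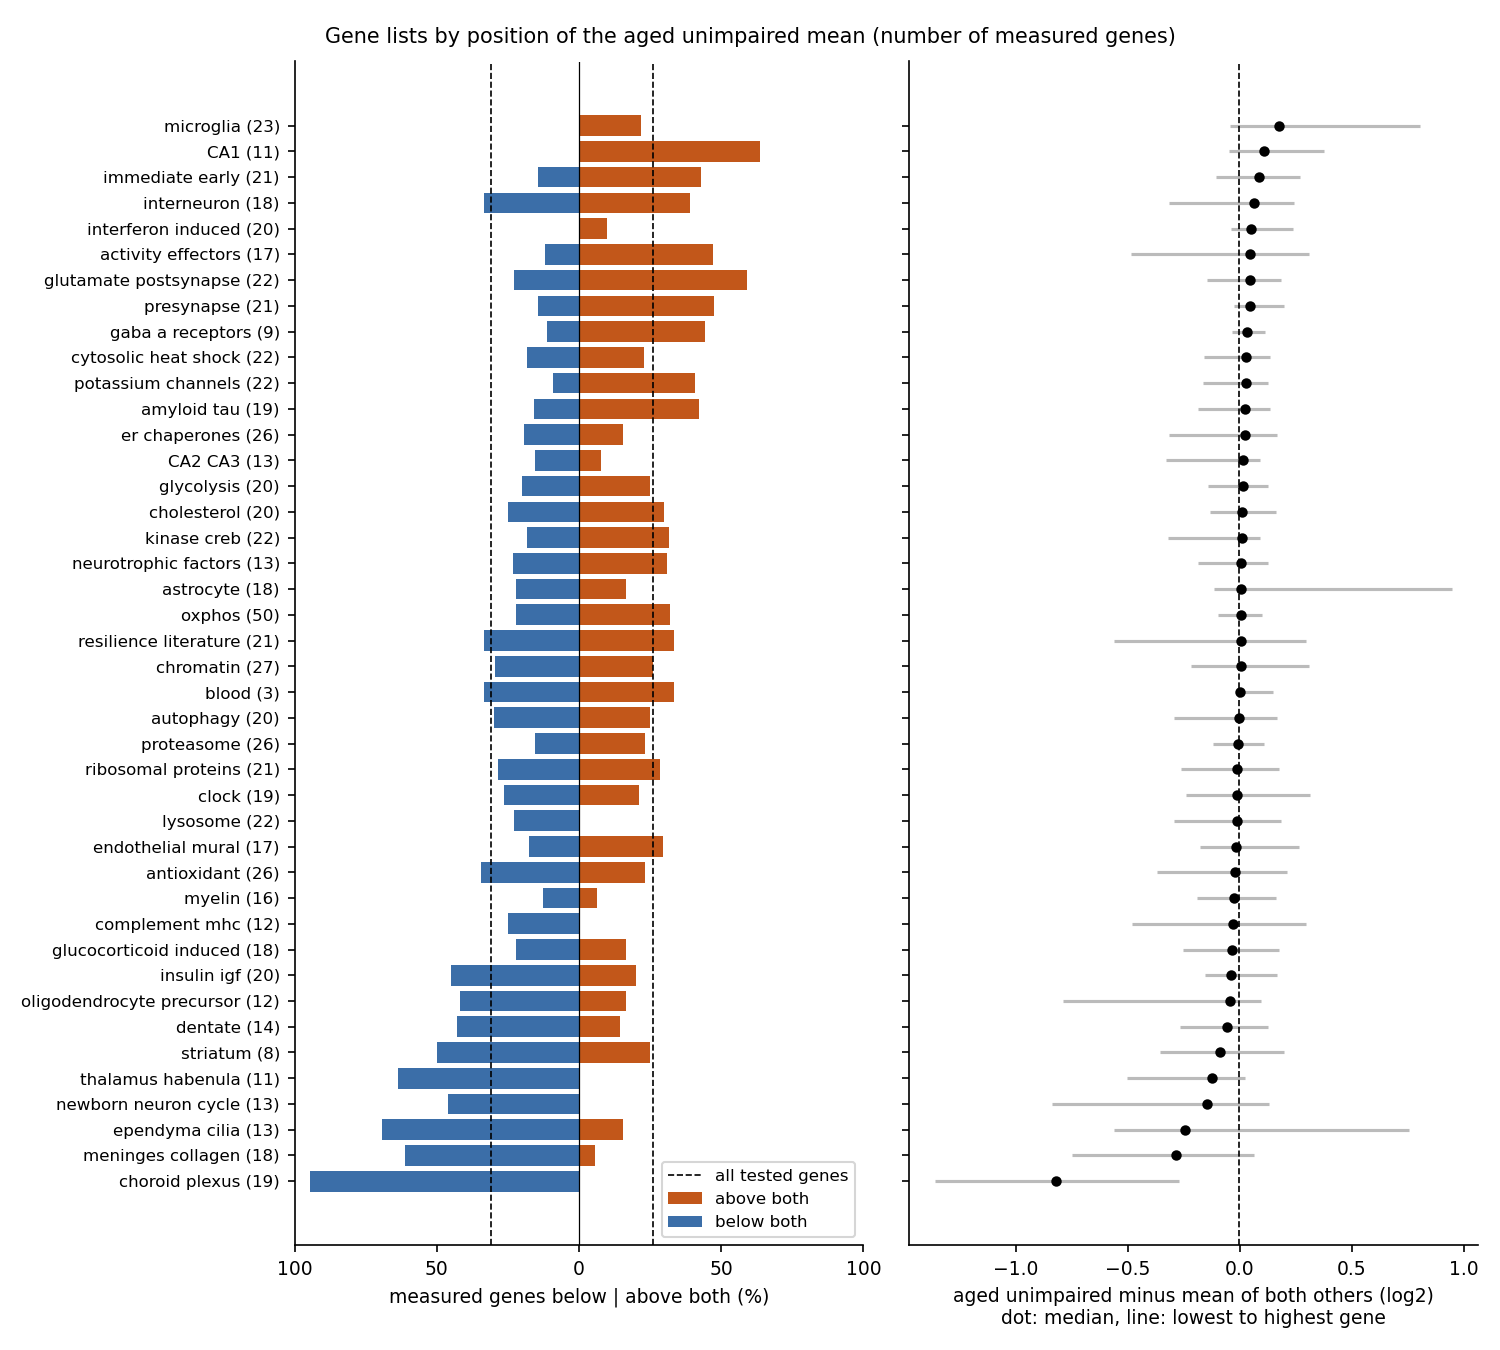
Left, bars give the percent of measured genes of each list with the aged unimpaired mean above (orange) or below (blue) both other groups, and dashed lines give the same over all genes, 26.2% and 30.8%. Right, dots give the median difference (log2) and lines the lowest to highest gene; the choroid plexus list stands lowest at -0.82 and the microglia list highest at 0.17.

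Lists of stress, clock and chromatin genes had median differences close to that of all genes. Of chaperones of the endoplasmic reticulum 4 of 26 were above both groups (15.4%) and 5 below (19.2%), beside 26.2% and 30.8% over all genes. The other 17 lay between the groups, and the median was 0.08 from aged impaired and -0.09 from young samples. Hyou1, a chaperone of the reticulum, stood at 0.03 against aged impaired and -0.41 against young samples, and Creld2 stood at 0.42 against aged impaired and -0.08 against young samples, so neither stood apart from both. Sel1l, of the degradation complex, differed by 0.10 ± 0.05. Of circadian clock genes 4 of 19 were above and 5 below. Nfil3, a repressor in the clock, had levels of 8.0 to 8.58 (median 8.25) in aged unimpaired samples, 7.74 to 8.45 (median 7.83) in aged impaired samples and 7.81 to 8.29 (median 7.93) in young samples. The ranges overlapped, and the difference was 0.31 ± 0.11 (limma adjusted p = 0.790). Npas2, a partner of the clock activator, differed by -0.24 ± 0.11. Dbp, a clock output factor, lay between the groups, with -0.62 against aged impaired and 0.18 against young samples.

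Of genes induced by glucocorticoids 3 of 18 were above both groups and 4 below. Tsc22d3, a hormone target known as GILZ, differed by -0.22 ± 0.09 and the inhibitor Nfkbia by -0.18 ± 0.07, the second with -0.37 against aged impaired and -0.00 against young samples. Mt2, a metallothionein, stood at -0.60 against aged impaired and 0.09 against young samples. Of chromatin regulators 7 of 27 were above and 8 below. The deacetylase Hdac8 differed by 0.31 ± 0.12, the DNA methyltransferase Dnmt3a by -0.20 ± 0.08 and the histone methyltransferase Ezh2 by -0.22 ± 0.10.

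A list of genes that earlier work tied to memory resilience or ageing of the brain held 21 measured genes, with 7 above both groups, 7 below and a median of 0.01. B2m, a subunit of class I MHC, stood at -0.00 against aged impaired and 0.60 against young samples. Rbbp4, a histone-binding protein, had levels of 12.64 to 12.83 (median 12.74) in aged unimpaired samples, 12.79 to 12.97 (median 12.84) in aged impaired samples and 12.72 to 12.86 (median 12.78) in young samples. The ranges overlapped, and the difference was -0.09 ± 0.05 (limma adjusted p = 0.896). Mef2a, a neuronal transcription factor, differed by 0.10 ± 0.06. The sign of this list's median changed in 8 of 27 settings.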

How the data were processed

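Expression was measured on 18 arrays of mouse hippocampus, 6 per group, grouped by the sample titles. The authors deposited linear intensity per probe set, which per the submitters' processing notes came from MAS5 (no version given), and it was scaled to a trimmed mean of 150 on each array. Array medians were 23.5 to 30.5 in deposited units, and each array correlated at 0.976 to 0.983 with the one most like it.

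Arrays were scaled to a trimmed mean of 500 (2% left out at each end), 16 was added and log2 taken. The 64 control probe sets and the dimmest 40% of the others were removed, which left 27022 probe sets and 13121 named genes, represented by the probe set of highest mean. The platform annotation gave 34945 probe sets 1 symbol, 932 several and 9160 none, and 34754 of the first were matched to a RefSeq table of assembly GRCm38.p6. No coordinates were used.

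limma 3.58.1 in R 4.3.3 fitted 3 group means to all samples, with 2-sided tests, Benjamini-Hochberg adjustment over all probe sets and a threshold of 0.05. The code of the fit was checked on simulated data, with independent noise for each probe set and shifts added to aged unimpaired samples. Such data lack variation shared between genes, so the check does not cover it. Array measures used an exact permutation test over 18564 splits. Named genes were, per direction, the 10 of lowest p on the same side of both groups, since fewer than 5 were called, those fully separated, the 5 of lowest p in the stricter test, and up to 3 of lowest p per described list. Other named probe sets were chosen after their values were seen. The comparison and the lists were chosen with earlier results of these data known. The alternatives tried were the sample number as a block, quantile normalization, no filter or one of 60%, an offset of 1 or 64, covariates for 3' to 5' ratio and choroid plexus mean, array weights, trended and robust moderation, pooling the other groups, averaging a gene's probe sets, and leaving out each sample.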

Additional observations from a re-analysis of the deposited data

Results flagged for a closer look

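In 375 groups of 6 values, over the named genes and array measures, 1 sample lay far from the other 5 by Dixon's test in 36, and chance alone marks about 1 in 20 groups. All values are log2(signal + 16). Among aged unimpaired samples the high ones were replicate 1 at 8.54 for 0610030E20Rik, replicate 5 at 8.05 for Itgam, replicate 6 at 9.60 for Clec7a, replicate 6 at 9.53 for Lcn2, replicate 6 at 11.10 for Serpina3n, replicate 6 at 8.49 for Tek, replicate 6 at 10.46 for Nos1, replicate 3 at 7.15 for Ezh2, replicate 5 at 7.40 for Lamtor2, replicate 6 at 7.03 for Ddx5 and replicate 6 at 9.90 for microglia, where the microglia value is the mean of that list. The low ones were replicate 4 at 6.75 for Sod3, replicate 1 at 8.88 for Ncstn, replicate 4 at 11.82 for a dimmer probe set of Pisd-ps3 and replicate 2 at 7.81 for Slc6a9. The Ddx5 value set whether that probe set was called, as given above, and replicate 6 was also the high sample for the microglia mean, Clec7a, Lcn2, Serpina3n, Tek and Nos1. Among aged impaired samples the high ones were replicate 1 at 12.26 for S100b, replicate 2 at 9.27 for Creld2, replicate 2 at 8.45 for Nfil3 and replicate 2 at 10.89 for Tsc22d3. The low ones were replicate 1 at 6.64 for Ears2, replicate 4 at 7.08 for 3110021A11Rik, replicate 5 at 7.65 for Rsph1, replicate 2 at 10.79 for Nr4a3 and replicate 2 at 7.99 for Gss. Replicate 2 was the outlying aged impaired sample for Nr4a3, Creld2, Nfil3, Tsc22d3 and Gss. Among young samples the high ones were replicate 3 at 11 for Luc7l, replicate 5 at 8.47 for Traf3ip1, replicate 4 at 11.79 for Sel1l, replicate 4 at 8.29 for Nfil3 and replicate 6 at 6.93 for Chrna5. The low ones were replicate 1 at 10.34 for Irf2bpl, replicate 5 at 6.4 for Slc22a6, replicate 6 at 4.39 for Clec7a, replicate 3 at 9.65 for Gpr161, replicate 1 at 12.72 for Slc17a7, replicate 4 at 12.82 for Sv2b and replicate 6 at 6.62 for Ezh2.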

How the results depend on the processing

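Calls were few in every setting run. Beside 0 probe sets as reported, the count was 3 with the 60% filter, 2 with the 3' to 5' covariate and 5 with trended and robust moderation, all of them Pisd-ps3, Pcdhb9 or unnamed probe sets that differed by less than 0.2 from the aged impaired samples. It was 0 with quantile normalization, either offset, no filter, the choroid plexus covariate (lowest adjusted p = 0.0531), array weights, pooling of the other groups and the fit without the 5 arrays of lowest choroid plexus signal. With the sample number as a replicate block the count was 0 (lowest limma adjusted p = 0.187). The numbers did not pair the samples, since same-numbered deviations correlated at -0.247 to 0.0957 over 18 pairs, and 0 of 18 samples correlated best with its own number. Leaving out each sample gave 0 to 3 calls. These were 3 without aged impaired replicate 4, and 1 each without aged impaired replicate 6 (Zc2hc1c), aged unimpaired replicate 5 (an unnamed probe set, -0.95, adjusted p = 0.0173) and aged unimpaired replicate 6 (Ddx5). The stricter test called 0 to 0 probe sets throughout. Fully separated probe sets numbered 6 to 13 with 1 sample left out and 148 without the 5 arrays, where fewer samples make separation easier. They numbered 13 without aged unimpaired replicate 2, 11 without replicate 5 or 6, 10 without replicate 4, 10 without aged impaired replicate 1 and 11 without young replicate 6. The choroid plexus difference ranged from -1.17 to -0.46 with 1 sample left out. Of 117 genes and probe sets followed, 2 turned sign, Kcnn1 at -0.0034 with the 3' to 5' covariate and Clic6 at 0.0077 without the 5 arrays, and the cause was not tested. Sphk1 ranged from -1.60 to -0.60 (adjusted p 0.0640 to 0.388). Medians of 27 of 42 lists changed sign in some setting. Dim signal near the filter limits Sphk1, Mast1 and Zc2hc1c. It also limits Insyn2a, Xkr6, Abcg8, Gm9112, Mcm3 and the named probe sets of Ddx5 and Fut11. Their lowest aged unimpaired values, from 4.94 for Insyn2a to 5.91 for Fut11, lay under the filter level of 5.92.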

Other observations

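Genes of other cell types and of cell maintenance were mostly close to the mean of both groups, and 0 of them were called. Myelin genes numbered 1 of 16 above both and 2 below. Mog, a protein of the myelin surface, had levels of 9.83 to 10.18 (median 9.96) in aged unimpaired samples, 10.22 to 10.46 (median 10.35) in aged impaired samples and 9.56 to 10.06 (median 9.93) in young samples. The aged unimpaired samples all lay below the aged impaired ones and overlapped the young ones, and the difference from the mean of both was -0.14 ± 0.07 (limma adjusted p = 0.901). Mag, an adhesion protein of myelin, stood at -0.50 against aged impaired and 0.12 against young samples. Astrocyte genes numbered 3 of 18 above and 4 below. Lcn2 and Serpina3n, secreted proteins of reactive astrocytes, stood at -0.40 against aged impaired and 2.30 against young samples and at -0.39 against aged impaired and 0.99 against young samples, so neither lay beyond both groups. Of blood vessel genes 5 of 17 were above and 3 below. Cldn5, the tight junction protein of brain endothelium, had levels of 9.89 to 10.57 (median 10.27) in aged unimpaired samples, 9.53 to 9.99 (median 9.75) in aged impaired samples and 9.97 to 10.41 (median 10.12) in young samples, for a difference of 0.26 ± 0.10 (adjusted p = 0.865). It stood at 0.44 against aged impaired and 0.08 against young samples.

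Interneuron genes were split, with 7 of 18 above both groups and 6 below. Gad1, which makes GABA, differed by 0.15 ± 0.08 and the neuropeptide Crh by -0.32 ± 0.18. Antioxidant genes numbered 6 of 26 above and 9 below, and Gss, the last enzyme of glutathione synthesis, had levels of 7.83 to 8.44 (median 8.15) in aged unimpaired samples, 7.99 to 8.64 (median 8.56) in aged impaired samples and 8.27 to 8.79 (median 8.60) in young samples. The ranges overlapped, and the difference was -0.37 ± 0.11 (limma adjusted p = 0.710). Among autophagy genes, 5 of 20 above and 6 below, the initiating kinase Ulk2 differed by 0.17 ± 0.07 and Wipi1, of the growing autophagosome, by -0.18 ± 0.08. Of genes of amyloid and tau processing 8 of 19 were above and 3 below. Adam10, the alpha-secretase, differed by 0.13 ± 0.05 and Ncstn, a subunit of gamma-secretase, by -0.19 ± 0.09. Aged unimpaired replicate 1 was the lowest for Ncstn, at 8.88 beside 9.55 for the next sample of its group.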
